A study of Homo sapiens with 3 samples.

Results

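Phosphate transporters were followed through a pooled CRISPR knockout screen by reading every single guide RNA (sgRNA) directed against 6 genes: SLC34A3, SLC34A1, SLC34A2, SLC20A1, SLC20A2 and XPR1. These sgRNAs were taken by the gene symbol in their names and made up 59 of the 200682 sgRNAs and 6 of the 20381 genes measured. The set was chosen by the values of SLC34A3 in the sort described here: SLC34A3 was selected on its sgRNA counts in that sort and the other 5 as its relatives, so its enrichment in that sort is a description and carries no test.

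The cells were K562, an established leukaemia line of human origin that shows little MHC class I at its surface, made to express the nuclease Cas9. Cells received the Bassik Human CRISPR KO library, designed with 10 sgRNAs a gene, at 0.3 infecting particles a cell and were selected in puromycin at 1 μg/mL for 72 h from 48 h after infection. There were 3 libraries, 1 per group: cells sorted on days 18 and 25 for high surface HLA-B (HLA-B high sorted), unsorted cells of the same screen (high-screen control), and unsorted cells of a screen for low MHC class I, which was sorted on days 7 and 15 (low-screen control). Interferon-γ, which induces MHC class I, was given 24 h ahead of each sort, at 1 ng/mL for the high screen and 25 ng/mL for the low one, and the labels do not give the day on which either pool was harvested. The low-screen control is titled as an HLA-ABC control while the name of its deposited data says HLA-B, and it was used here as unsorted cells of the low screen in either case. Each library came from a mixed population of edited cells, and sgRNA counts carry no measure of expression, so whether K562 cells express each transporter was not examined.

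Cells take up inorganic phosphate mainly by sodium-coupled carriers and release it through a single known exporter. The SLC34 carriers move phosphate across epithelia, SLC34A1 and SLC34A3 in the kidney and SLC34A2 in the gut and lung, whereas SLC20A1 and SLC20A2 serve most cells for their own supply. XPR1 exports phosphate and is switched by inositol pyrophosphates, and inherited loss of SLC34A3 causes renal phosphate wasting with rickets.

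Matched reads numbered 34266318 for HLA-B high sorted, 22562241 for the high-screen control and 98426251 for the low-screen control. The sorted library was far more uneven than the pools. Of the sgRNAs listed in at least 1 of the 3 libraries, it held reads for 49.6%. The high-screen pool held reads for 97.7% of them and the low-screen pool for 93.4%. Any sgRNA listed in no library was not counted. An sgRNA without reads was therefore common in the sort, and a count of 0 there allows up to 0.0875 reads per 1000000 matched reads (CPM). For each sgRNA with at least 10 reads in the control, the log2 ratio was taken after scaling to equal depth with 1 read added, and a gene was described by the median over its sgRNAs with a 95% order-statistic interval. Each group held 1 library, so replicate error is unknown. All intervals cover sgRNAs or counting error only.

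SLC34A3 (ENSG00000198569) stood apart from its relatives in the sort. Its median log2 ratio was 2.10 in HLA-B high sorted cells over the high-screen control (interval -2.27 to 2.73, 10 sgRNAs), while the medians of the other 5 genes lay between -5.91 and -1.46. The interval of SLC34A3 ran across 0 because 7 sgRNAs were above a log2 ratio of 1 and the other 3 were below -1. Among all gene-targeting sgRNAs, 12.6% were above 1 and 70.8% below -1 in this comparison. The safe-targeting sgRNAs, which cut sites with no annotated function, had a median of -4.25, with 11.7% above 1 (exact 95% interval 10.9 to 12.6), so a typical sgRNA was strongly reduced in the sorted cells. Non-targeting sgRNAs, which have no genomic site, had a median of -2.20, with 15.8% above 1.

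**Figure D1:**
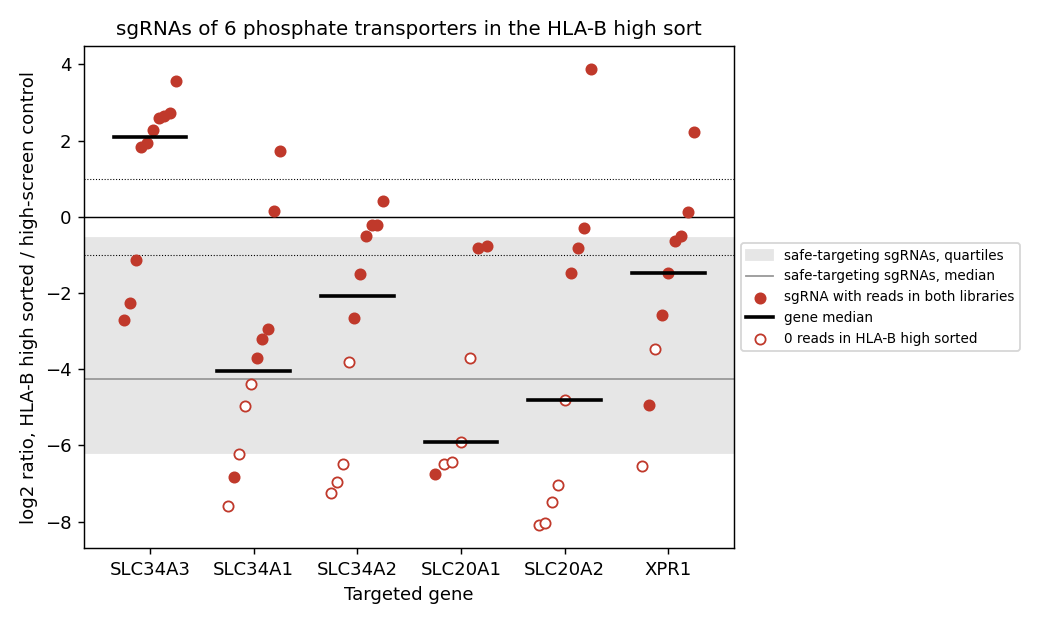
Each point is 1 sgRNA, plotted by targeted gene (x axis) and log2 ratio of HLA-B high sorted over high-screen control (y axis), with black bars at gene medians, open points for sgRNAs with 0 sorted reads and a grey band for the quartiles of safe-targeting sgRNAs. SLC34A3 has 7 sgRNAs above 1 and no open point, and SLC34A1, SLC20A2 and XPR1 have 1 sgRNA above 1 each.

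The SLC34A3 gene lies on chromosome 9 of GRCh37, at chr9:140125209-140131007 on the plus strand, and encodes a protein of 599 residues over 13 exons. Its enrichment came from several sgRNAs, 6 of which were above a log2 ratio of 1 over both pools. sgRNA 8, the highest, had 3112 reads in sorted cells, 172 in the high-screen pool and 576 in the low-screen pool. sgRNA 2 had 1845, 182 and 422 reads in the same libraries, and sgRNA 4 had 1687, 183 and 468. These 3 sgRNAs were 11.9-fold, 6.67-fold and 6.07-fold higher in the sorted library than in the high-screen control at equal depth, and higher still over the low-screen control, at 15.5-fold, 12.6-fold and 10.4-fold. sgRNA 10 had 1739 reads in sorted cells, 319 in the high-screen pool and 1722 in the low-screen pool. sgRNA 7 had 1115, 150 and 1134 reads, and sgRNA 5 had 512, 88 and 434. The last 3 were 3.59-fold, 4.89-fold and 3.83-fold higher over the high-screen control and 2.90-fold, 2.82-fold and 3.39-fold higher over the low-screen control.

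sgRNA 3 was less secure than these. It had 190 sorted reads, 19 in the high-screen pool and 489 in the low-screen pool, so its log2 ratio of 2.66 rested on the low count of 1 pool and was 0.16 over the other. The remaining sgRNAs went the other way in both comparisons. sgRNA 1 had 113 sorted reads against 163 and 963 in the high- and low-screen controls, sgRNA 6 had 27 against 121 and 1327, and sgRNA 9 had 30 against 99 and 504. Their log2 ratios over the high-screen control were -1.12, -2.70 and -2.27, all above the safe-targeting median of -4.25, while only sgRNA 1 was above the non-targeting median of -2.20. Only 52.4% of safe-targeting sgRNAs had sorted reads in this comparison, so an sgRNA with reads tends to lie above their median.

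**Figure D2:**
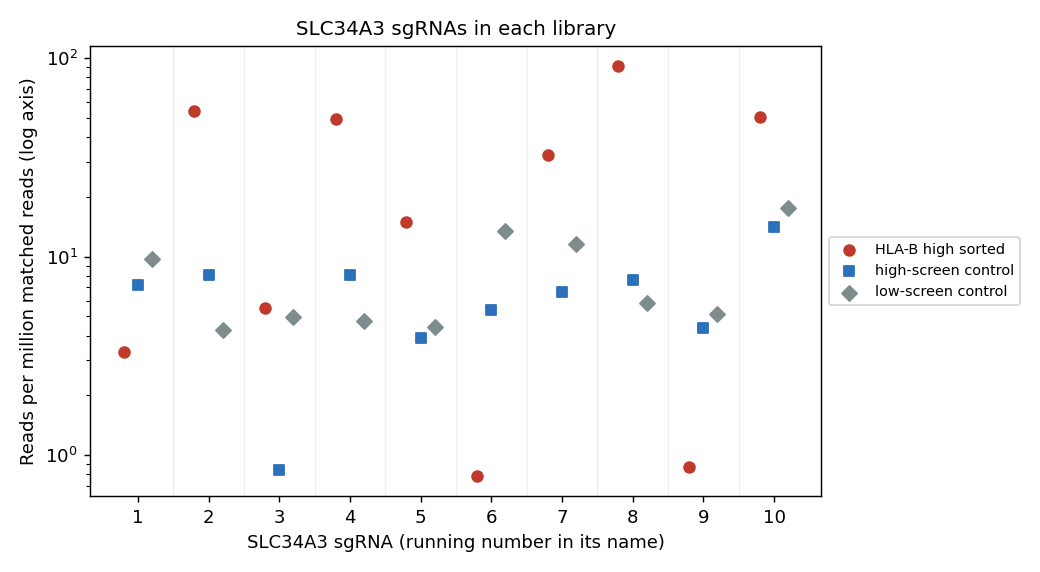
CPM on a log axis (y) for each of the 10 sgRNAs against SLC34A3 (x), with circles for sorted cells, squares for the high-screen pool and diamonds for the low-screen pool. In 6 sgRNAs the sorted value is above both pools by more than 2-fold, in sgRNA 3 it is near the low-screen control, and in sgRNAs 1, 6 and 9 it is below both.

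All 10 SLC34A3 sgRNAs had reads in the sorted cells, which was true of 25 of the 7463 genes with 10 usable sgRNAs (0.335%). At least 7 sgRNAs above 1 were found in 4 of these genes (0.0536%), SLC34A3 included. The median log2 ratio of SLC34A3 was matched or passed by 8 of 16898 genes with 8 or more usable sgRNAs, again counting SLC34A3 itself. Summed over its sgRNAs, SLC34A3 took 303 CPM in HLA-B high sorted cells (297 to 309) and 66.3 CPM in the high-screen control (63.0 to 69.8), a 4.56-fold difference (4.32 to 4.82 by counting error). sgRNA 8 gave 30.0% of the sorted reads, less than the 58.6% that the top sgRNA gave in the median gene, and without it the summed difference was 3.61-fold. These counts come from the contrast on which SLC34A3 was selected and describe it only. In the high-screen control its summed level was at the 84.3 percentile, above the 48.5 CPM of the median gene with 10 listed sgRNAs. Whether that level bears on how many of its sgRNAs had sorted reads was not tested.

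Genes were also ranked by redundant siRNA activity (RSA), the ranking the study used, which scores how far the sgRNAs of a gene gather at one end of the list of all sgRNAs. A gene was called where its score was under 0.001 and 4 or more of its sgRNAs reached the scoring rank. The score is not adjusted for the number of genes, and it serves here as a description. By this rule 0.310% of 20314 genes were called enriched and 0.414% depleted in sorted cells over the high-screen control. SLC34A3 ranked 10 among them with 7 sgRNAs at its scoring rank, and no other phosphate transporter was called in either direction.

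The closest relatives of SLC34A3 did not share its place. SLC34A1 (ENSG00000131183, chr5:176806236-176825849), the main phosphate carrier of the kidney proximal tubule, and SLC34A2 (ENSG00000157765, chr4:25649633-25680370), the carrier of gut and lung, have proteins that are 54.0% and 53.4% identical to SLC34A3 over aligned residues. SLC34A1 had a median log2 ratio of -4.05 (-6.82 to 0.16, 10 sgRNAs) in HLA-B high sorted cells over the high-screen control. Of these sgRNAs, 8 were below -1 and 4 had no sorted reads. This median lay at the 53.7 percentile of genes with 8 or more usable sgRNAs. Among all gene-targeting sgRNAs, 70.8% were below -1 and 51.5% had sorted reads in this comparison. The summed level of SLC34A1 was 30.7 CPM in sorted cells and 49.8 CPM in the high-screen control. One sgRNA, number 10, made up 84.9% of the sorted reads, with 894 sorted reads, 177 in the high-screen pool and 938 in the low-screen pool. That sgRNA had a log2 ratio of 1.73, and without it the summed reads of SLC34A1 were at 0.111 of the high-screen level.

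SLC34A2 had a median log2 ratio of -2.09 (-6.95 to -0.21, 10 sgRNAs) in the sort over the high-screen control. This lay at the 80.0 percentile of genes with 8 or more usable sgRNAs, so most genes were lower. SLC34A2 had no sgRNA above 1, 6 below -1 and 4 without sorted reads. The summed level of SLC34A2 was 38.4 CPM in sorted cells and 68.4 CPM in the high-screen control. Its highest sgRNA, number 10, had 701 sorted reads, 345 in the high-screen pool and 404 in the low-screen pool, which put it at 0.42 over the first pool and 2.31 over the second. SLC34A3 shared no coding stretch of 17 bases next to an NGG motif with any of the other 5 genes, whereas SLC34A1 and SLC34A2 shared 3 such stretches. The sgRNA sequences themselves were not used here.

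The SLC20 carriers, which import phosphate in most tissues, differed from each other in level. SLC20A1 (ENSG00000144136, chr2:113403516-113421402) had 9 sgRNAs listed and 7 usable, with a median log2 ratio of -5.91 (-6.74 to -0.75). None was above 0, and 4 of the 7 had no sorted reads. With absent sgRNAs set to the floor of 3 reads its median was -4.90, beside -3.65 for all genes measured the same way. sgRNA 3 held 76 of its sorted reads, against 89 in the high-screen pool and 509 in the low-screen pool. Its summed level was 3.15 CPM in sorted cells, 24.1 CPM in the high-screen control and 19.7 CPM in the low-screen control. These levels were low in the unsorted pools too: they lay at the 3.82 percentile of genes with 10 listed sgRNAs in the high-screen control and at the 1.38 percentile in the low-screen control, where the median gene had 48.5 and 48.7 CPM. The sum for SLC20A1 is over 9 sgRNAs. Per listed sgRNA it had 2.68 CPM in the high-screen control and 2.19 CPM in the low-screen control, against 4.69 and 4.72 CPM for the median gene. The count of each sgRNA in the library before infection was not used here, so a low starting share and a loss of cells during growth cannot be told apart.

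SLC20A2 (ENSG00000168575, chr8:42273993-42397069 on the minus strand), whose protein is 66.9% identical to SLC20A1, showed how far 1 sgRNA can carry a sum. Its median log2 ratio was -4.81 (-8.02 to -0.29, 9 usable sgRNAs), with 6 sgRNAs below -1 and 5 without sorted reads, which put it at the 37.7 percentile of genes with 8 or more usable sgRNAs. It was -3.77 with absent sgRNAs at the floor. Its summed level was 171 CPM in HLA-B high sorted cells and 102 CPM in the high-screen control, 1.68-fold higher. sgRNA 10 had 4595 sorted reads, against 204 in the high-screen pool and 1333 in the low-screen pool, a log2 ratio of 3.88 that exceeded every sgRNA of SLC34A3. It gave 78.4% of the sorted reads of the gene, and without it the summed ratio was 0.399. sgRNA 4 was left out of the median because it had only 4 reads in the high-screen pool. With 218 sorted reads it was 35.9-fold higher over that pool (13.8 to 133 by counting error). Over the low-screen pool, where it had 318 reads, it was 1.97-fold higher. At the other end, sgRNA 7 had no sorted reads against 273 in the high-screen control, at least 138-fold lower when 3 reads are taken as the floor.

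XPR1 (ENSG00000143324, chr1:180601158-180859415), the exporter, had the second highest median of the 6. Its median log2 ratio was -1.46 (-4.94 to 0.11, 9 usable sgRNAs), with 5 sgRNAs below -1 and 2 without sorted reads. Only sgRNA 3 was above 1, at 2.22, with 360 sorted reads, 50 in the high-screen pool and 596 in the low-screen pool. The summed level was 24.2 CPM in sorted cells and 33.6 CPM in the high-screen control. This median lay at the 86.6 percentile of all genes with 8 or more usable sgRNAs, where the median gene was at -4.25.

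**Figure D3:**
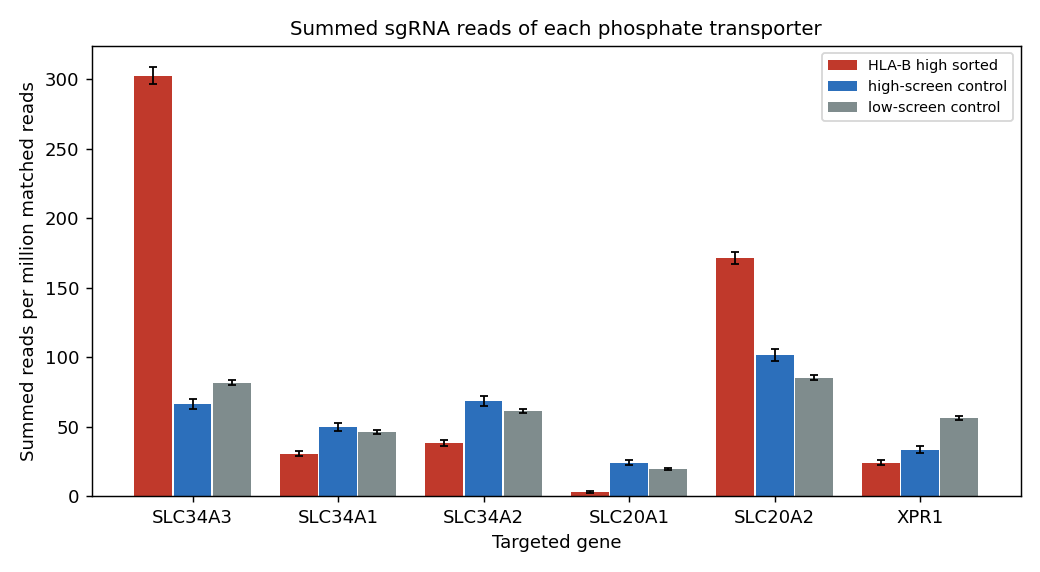
Bars give the summed CPM (y axis, from 0) of all sgRNAs against each transporter (x axis) in sorted cells and in the high-screen and low-screen pools, with exact 95% counting intervals as error bars. SLC34A3 and SLC20A2 are higher in the sort than in either pool, SLC34A3 at 303 CPM over many sgRNAs and SLC20A2 at 171 CPM with 78.4% of it from 1 sgRNA.

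Set against the low-screen control, the sorted library again had SLC34A3 highest of the 6. This comparison shares the sorted library with the one above and is no separate evidence. SLC34A3 had a median log2 ratio of 1.52 (-2.53 to 3.65), with 6 of 10 sgRNAs above 1 and 3 below -1, where 13.2% of all gene-targeting sgRNAs were above 1 and 71.5% below -1. It was called enriched at rank 30, among the 0.370% of 20295 genes called so, and 0.581% were called depleted. Summed, its reads came to 303 CPM in sorted cells and 81.7 CPM in the low-screen control, 3.71-fold higher (3.60 to 3.82). The medians of the others were -2.06 for SLC34A2, -3.29 for XPR1, -4.12 for SLC34A1, -5.34 for SLC20A2 and -7.48 for SLC20A1, and none of them was called. The lowest of these depend on the 1 read added to absent sgRNAs: with those at the floor of 3 reads the medians were -3.78 for SLC20A2 and -4.78 for SLC20A1, and that of all genes was -3.87 in place of -6.07. SLC20A2 had 1 more sgRNA above 1 here: sgRNA 2, with 593 sorted reads, 476 in the high-screen pool and 382 in the low-screen pool, a log2 ratio of 2.15.

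Between the unsorted pools the gene medians of 5 of the 6 transporters lay between -0.39 and 0.07, and XPR1 was lower. SLC34A3 had a median log2 ratio of -0.26 (-1.33 to 0.77, 10 sgRNAs) in the high-screen control over the low-screen control, with no sgRNA above 1 and 2 below -1. SLC34A1 was at -0.19 (-0.86 to 1.59), SLC34A2 at -0.26 (-0.94 to 1.81) and SLC20A2 at -0.39 (-2.12 to 1.23). SLC20A1 was at 0.07 with a very wide interval (-7.24 to 8.56, 8 sgRNAs). SLC34A1 and SLC34A2 each had 4 of 10 sgRNAs above 1 and 1 below -1. In this comparison 22.6% of gene-targeting sgRNAs were above 1 and 23.8% below -1. Genes called higher in the high-screen control made up 0.826% of 20341 and genes called lower 0.733%, with no phosphate transporter among them. Summed levels of SLC34A3 were 66.3 CPM in the high-screen control and 81.7 CPM in the low-screen control, at the 84.3 and 96.3 percentiles of genes with 10 listed sgRNAs.

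XPR1 had the lowest ratio of the 6 between the pools. Its median log2 ratio of high-screen over low-screen control was -0.78 (-3.98 to 0.18, 10 sgRNAs), with 8 sgRNAs below 0 and 5 below -1, which placed it at the 8.65 percentile of 18259 genes. Its summed level was 33.6 CPM in the high-screen control (31.2 to 36.0) and 56.0 CPM in the low-screen control (54.5 to 57.5). sgRNA 2 had no reads in the high-screen pool and 71 in the low-screen pool, sgRNA 4 had 10 and 703, and sgRNA 10 had 17 and 691. These 3 sgRNAs were the lowest, and the other 7 ran between -1.45 and 0.26. RSA ranked XPR1 at 1074 of 20341 in this direction, well outside the called genes.

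Single sgRNAs were present in 1 pool and missing in the other for SLC20A1 and SLC34A1 as well. SLC20A1 sgRNA 7 had 86 reads in the high-screen control and none in the low-screen control, and sgRNA 9 had 34 and none, while sgRNA 5 had none and 150. SLC34A1 sgRNA 7 had 20 reads in the high-screen control and none in the low-screen control. The pools were made from different screens, whose sorts differed in day and interferon dose. The paper describes the unsorted cells as grown in parallel and does not say whether they received interferon. Screen, time and any effect of dose therefore cannot be told apart here.

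**Figure D4:**
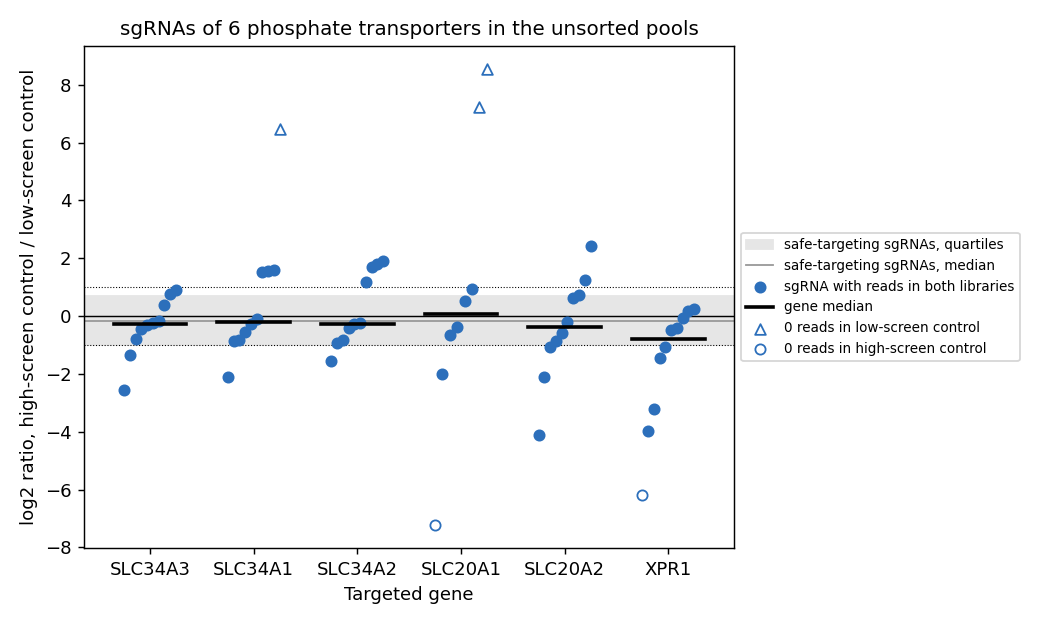
Each point is 1 sgRNA, plotted by targeted gene (x axis) and log2 ratio of high-screen control over low-screen control (y axis), with black bars at gene medians, a white circle for 0 reads in the high-screen control and a white triangle for 0 in the low-screen control. Gene medians lie between -0.78 for XPR1 and 0.07 for SLC20A1.

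Other genes of phosphate handling were read through 5 lists with 48 genes, all measured. None was called enriched in the HLA-B high sorted library over either pool, beside 0.310% and 0.370% of all genes. NUDT3 could not be called, with 3 usable sgRNAs over the high-screen control and 2 over the low-screen control. Hormones and receptors of phosphate balance (14 genes, among them FGF23, its co-receptor KL and the parathyroid hormone receptor PTH1R) had a median of gene medians of -4.30 over the high-screen control, the same as the -4.30 of all 20314 genes. Their highest member was VDR, the vitamin D receptor, at -1.95, and the lowest was FAM20C, a kinase of secreted proteins, at -6.41.

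The PDZ scaffold proteins that bind the renal carriers (5 genes) had a median of -3.83. The highest was SLC9A3R2 at -0.88 and the lowest SHANK2 at -5.91. Other phosphate carriers (13 genes of the mitochondrial, SLC17 and SLC37 groups and ANKH) had a median of -3.26, between SLC37A3 at -0.64 and the mitochondrial carrier SLC25A24 at -6.49. Enzymes that act on phosphate compounds outside the cell (6 genes) had a median of -3.20. Tissue-nonspecific alkaline phosphatase ALPL was highest at -0.08 and ALPPL2, another alkaline phosphatase, lowest at -4.22. Each of these medians was negative, as was that of all genes.

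The list closest to XPR1, its partner KIDINS220 and the enzymes of inositol pyrophosphates (10 genes), had a median of -4.78 in the sort over the high-screen control, between KIDINS220 at -0.70 and IPMK at -6.38. It held both list members that were called. PPIP5K2, a kinase that makes inositol pyrophosphates, was depleted in HLA-B high sorted cells over the high-screen control, with a median of -6.35, 9 of 10 sgRNAs below -1 and 8 without sorted reads, beside 0.414% of genes called depleted. Over the low-screen control its median was -8.09 and it was not called. ITPK1, which acts earlier in the same route, was lower in the high-screen control than in the low-screen control, with a median of -1.35 and rank 15, beside 0.733% of genes called lower.

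The genes on either side of SLC34A3 on chromosome 9 did not follow it in the sort. The 5 nearest library genes on each side, from TMEM203 to TOR4A over chr9:140098534-140177093, had medians between -6.48 for TUBB4B and -1.44 for C9orf173 over the high-screen control, and none was called. Of their 84 usable sgRNAs, 12 were above 1 (14.3%), beside the 12.6% of all gene-targeting sgRNAs.

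The genes whose pattern was most like that of SLC34A3 were found by the distance between pairs of gene medians, the sort over the high-screen control and the high-screen over the low-screen control, among 16897 genes with 8 or more usable sgRNAs. The nearest was CYTL1, which encodes a secreted cytokine-like protein, at a distance of 0.23, with medians of 2.03 and -0.05. MAP4K5, a kinase, had medians of 1.89 and -0.66, CHMP5, a part of the membrane-remodelling ESCRT machinery, 2.48 and -0.52, CHIC2 2.07 and 0.19, and GPR20, an orphan receptor, 1.61 and -0.32. Over the low-screen control these genes spread from -0.52 for GPR20 to 2.17 for CYTL1, against 1.52 for SLC34A3. The likeness rests on 3 libraries and in part on the contrast that chose SLC34A3. Each of the named genes was itself called enriched there, beside 0.310% of all genes. They were picked in part by their medians in that same contrast, so these calls largely follow from the choice. The distances, up to 0.49, were small beside the interval of the SLC34A3 median in the sort (-2.27 to 2.73).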

How the data were processed

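Genomic DNA of sorted and unsorted K562 Cas9 cells was amplified by PCR over the sgRNA cassette and sequenced. The deposited values were unnormalized counts of reads for each sgRNA. The authors obtained them by trimming reads with fastx clipper or cutadapt, mapping them with Bowtie2 to the sgRNA library and removing reads that aligned more than once. The submitters' processing notes also name bcl2fastq, and versions are not given in the sources used here. An sgRNA missing from a library's list was given 0 reads. Reads matched to no sgRNA (21.9% in HLA-B high sorted, 20.6% in the high-screen control, 12.1% in the low-screen control) were left out. Reads carry no molecular identifiers, so intervals and floors (3 reads) cover counting error only.

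Counts were scaled to total matched reads. log2 ratios used a pseudocount of 1 read and needed at least 10 reads in the control, or in either pool when pools were compared. Because 1 read was added, a ratio for an sgRNA absent from a library depends on its depth in the other. RSA ranked gene-targeting and control sgRNAs together, and only sgRNAs with a ratio above 0 (below 0 for depletion) counted toward a score. That restriction was chosen after the data were seen. No p-value is given, since each group held 1 library. Ranges of a sum are exact Clopper-Pearson 95% intervals. RSA and the medians were tried on simulated counts drawn around those of the high-screen control, with known changes in some genes. Those counts lacked the many absent sgRNAs of the real sort, so they do not show how the calls behave there. Computation used Python 3.11.15, numpy 2.4.6, pandas 2.3.3, scipy 1.17.1, Biopython 1.88 and matplotlib 3.10.9.

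Positions and coding sequences came from GENCODE 44 lifted to GRCh37, where 19754 of 20381 gene identifiers matched. Protein identity is over positions aligned without a gap. The members, the 5 lists and the rule for named genes (all 6 transporters, every SLC34A3 sgRNA, sgRNAs of the others above 1 in the sort, list members called or highest or lowest, 5 genes of like pattern and 5 neighbours on each side) were chosen with earlier results of these data known. sgRNAs below 1 were added as examples after their values were seen.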

Additional observations from a re-analysis of the deposited data

How the results depend on the processing

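Under 9 other settings and 1 more, chosen after the data were seen, that set absent sgRNAs to 3 reads, the median of SLC34A3 kept its sign: it ran between 1.15 and 2.29 in HLA-B high sorted over the high-screen control, between 0.77 and 1.89 over the low-screen control, and between -0.39 and -0.14 for the high-screen over the low-screen control. The lowest sort values came from the mean over sgRNAs. SLC34A3 was the only transporter called, in the sort, under all 5 alternative call rules, at ranks 6 to 11 over the high-screen control and 20 to 77 over the low-screen control. Of 150 values for the other transporters, 147 stayed within the interval of the gene median, but these intervals are wide and 10 values had the opposite sign, 8 of them between the pools. The other 2 were SLC20A2 by summed CPM, at 0.75 over the high-screen control and 1.00 over the low-screen control, where sgRNA 10 gave most reads. SLC34A1 was at -0.70 over the high-screen control by summed CPM, against a median of -4.05. The 3 values outside the intervals were SLC20A1 with a pseudocount of 0.5 (-6.89), SLC20A2 by summed CPM over the high-screen control (0.75) and SLC34A1 by summed CPM over the low-screen control (-0.59).

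Counts over all genes moved more. Without the most extreme sgRNA of each gene, 110 genes were enriched over the high-screen control in place of 63 and 166 depleted in place of 84, with 114 in place of 75 and 192 in place of 118 over the low-screen control, and 251 in place of 149 lower in the high-screen control. Asking for 4 sgRNAs past a log2 ratio of 1 gave 142 depleted over the high-screen control. RSA without regard to the sign of the ratio, an alternative added after the data were seen, gave 109 and 130 enriched. The causes were not tested. Scaling within sublibraries was not run, since sgRNA names give none. No paired analysis was possible because each group held 1 library.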
